A study of Arabidopsis thaliana with 6 samples.

Results

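The *ERF* genes of group IX encode ethylene response factors, a family of plant transcription factors, and 10 of them were examined here: *ERF1* (AT3G23240), *ORA59* (AT1G06160), *ERF1A* (AT4G17500), *ERF2* (AT5G47220), *ERF13* (AT2G44840), *ERF15* (AT2G31230), *ERF5* (AT5G47230), *ERF6* (AT4G17490), *ERF104* (AT5G61600) and *ERF105* (AT5G51190). Every probe whose transcript belonged to these loci was used, which gave 13 probes among the 43603 of the array and 10 genes among the 25433 that the probes could be matched to. *ERF1A*, *ERF6* and *ERF105* were each read by a pair of probes. The samples were the aerial tissues of 17-day-old *Arabidopsis* plants, with 3 arrays for the wild type, Col-0, and 3 for *35S::OsbHLH068* (9), written OsbHLH068OE below. This line carries the rice bHLH factor gene *OsbHLH068* in the Col-0 background under the constitutive 35S promoter. The transgenic group was 1 line, no treatment was given in the labels of either group, and the level of the rice transcript was not read by these probes. The submitters named the replicates biological repeats, but how the plants were grown or pooled for each was not given, so the P values measure the spread between these arrays.

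Proteins of group IX bind the GCC box, a short promoter element found upstream of many defense genes, and most act as activators of transcription. Their genes respond quickly to ethylene, jasmonate, wounding and pathogens, and the group links both hormones to the expression of defensins, chitinases and other antimicrobial proteins. In leaves, some members also act in osmotic and cold stress and in the restraint of growth. Here the group did not move as a unit. *ERF15* rose in the *OsbHLH068*-overexpressing transformants, and *ERF13*, *ERF6* and *ERF105* fell. *ERF1* and *ERF104* were lower on average, but their Col-0 and OsbHLH068OE arrays overlapped. *ORA59*, *ERF1A*, *ERF2* and *ERF5* gave small differences with wide intervals. In the main comparison by limma, the smallest P adjusted over all probes among the genes named here was 0.0934, for *ERF13*.

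All 13 probes were well above the local background on all 6 arrays, with 0 saturated spots and 0 outlier marks among them. Per array, 70.9% to 74% of probe spots exceeded background, and the median spot read 284 to 356 intensity units against a background of 29 to 32. Green tissue markers (24 probes) had log2 signals of 12.27 to 18.26, whereas 0 of the 5 root marker probes were well above background on every array. Floral organ markers were detected by all 7 of their probes. Their summed signal was 6110 to 8940 units in Col-0 and 4820 to 6930 in OsbHLH068OE. Single markers went different ways. OsbHLH068OE minus Col-0 on the log2 scale was −0.78 and −0.91 for *SEP3*, and 0.55 and 0.53 for *AG*. It was −0.26 for *AP1*, −0.26 for *PI* and 0 for *AP3*. The part of floral tissue in the results below was not tested. Slide 1 held replicate 1 of each genotype and slide 2 held the other replicates, so that slide and replicate 1 cannot be told apart. In a bulk sample, fewer cells of a type and less RNA per cell cannot be told apart either.

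The probes of *ERF15*, *ERF1*, *ERF13* and *ERF104* are 60-base sequences, given here 5′ to 3′ in lower case with no base singled out. They are printed because the specificity of each value rests on them. The sequences for *ERF6* and *ERF105* are not printed. *ERF15* and *ERF13* lie on chromosome 2, *ERF1* on chromosome 3 and *ERF104* on chromosome 5.
*ERF15* probe: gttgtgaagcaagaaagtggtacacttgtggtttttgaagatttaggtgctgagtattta
*ERF1* probe: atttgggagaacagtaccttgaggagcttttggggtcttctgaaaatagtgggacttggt
*ERF13* probe: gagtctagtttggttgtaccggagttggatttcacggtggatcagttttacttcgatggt
*ERF104* probe: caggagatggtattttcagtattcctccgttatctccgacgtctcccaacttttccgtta
Among 6 probes compared, these and 1 each of *ERF6* and *ERF105*, the longest run of bases shared with another gene's probe was 6 or 7. The GC content was 36.7% for the *ERF15* probe and 45.0% for each of the *ERF1*, *ERF13* and *ERF104* probes. Only probes were compared with each other, so cross-hybridization with transcripts of other genes, inside or outside the group, was not tested.

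To determine how the group differed between the genotypes, the deposited log2 signals were compared probe by probe with limma over all 43603 probes. A differentially expressed probe (DEP) was defined by the thresholds of the study, an absolute log2-fold change over 1 together with an unadjusted P under 0.05, with the P taken from limma. The study's text also names a different test for P, given here as the methods' t-test. Over all probes there were 509 DEPs by limma and 396 by the methods' t-test. Both counts are below the one the study reports, so the calls here are not the study's list. Of the 13 probes, 6 were DEPs, against 1.17% of all probes. Only the *ERF15* probe was a DEP in the higher direction (0.378% of all probes), while 5 probes of 4 genes were DEPs in the lower direction (0.789% of all probes). The 3 arrays of each group did not overlap for 6 of the 13 probes (27.0% of all probes), of which 1 was higher (14.7%) and 5 were lower (12.3%) in OsbHLH068OE. With limma and Benjamini-Hochberg adjustment over all probes, 0 of the 13 had an adjusted P under 0.05, against 0.527% of all probes, although 7 had an unadjusted P under 0.05, against 19.8%. By the methods' t-test these counts were 0 and 5 (18.5% of all probes for the unadjusted P), and 4 probes were DEPs (0.908% of all probes), without *ERF1* and *ERF105* probe 2. The median log2-fold change was −0.80 for the 13 probes and 0.0178 for all probes. The call at an adjusted P of 0.05 varied with the fit. When slide entered the limma fit as a block, 3 of the 13 probes had an adjusted P under 0.05, against 2.33% of all probes. The same count was reached in some fits without slide, given in the closing section. Within slide 2 alone, 0 of the 13 had one by limma, against 0.00229% of all probes, while 4 were DEPs, against 2.12% of all probes.

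**Figure D1:**
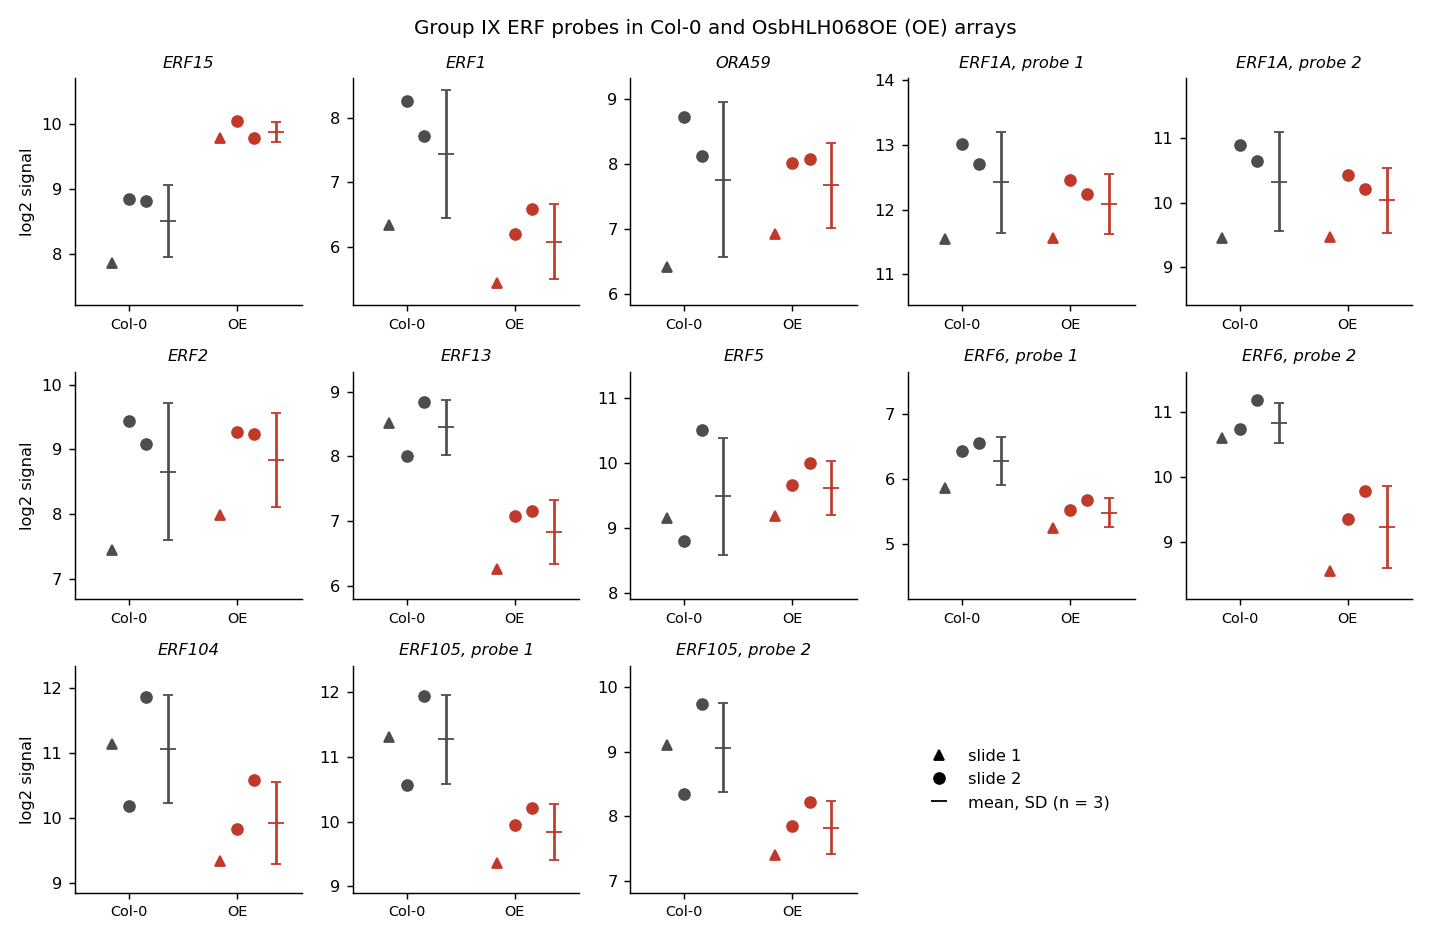
Log2 signal of each of the 13 probes on the 3 Col-0 and 3 OsbHLH068OE (OE) arrays, with triangles for slide 1, circles for slide 2, and bars for the mean and SD (n = 3); each panel spans the same number of log2 units around its own middle. The OE arrays of *ERF15* lie at 9.79 to 10.05, above all Col-0 arrays, whereas those of *ERF13* lie at 6.26 to 7.16, below all Col-0 arrays.

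*ERF15*, which encodes a positive regulator of the abscisic acid response, had log2 signals of 7.86, 8.84 and 8.82 on Col-0 replicates 1 to 3 and of 9.79, 10.05 and 9.79 on the corresponding OsbHLH068OE arrays. The groups did not overlap, and the Col-0 array of slide 1 stood below the other arrays of its group. The means were 8.50 ± 0.560 in Col-0 and 9.88 ± 0.152 in OsbHLH068OE (SD, n = 3). The difference was 1.37 on the log2 scale (SE 0.281, 95% interval 0.69 to 2.06), or 2.59-fold, with an adjusted P of 0.1 by limma. It was 1.93 on slide 1 and 1.1 on slide 2. With slide as a block, the adjusted P from limma was 0.049, and over the 18 other settings tried the adjusted P was between 0.0383 and 0.286.

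*ERF1* and *ORA59* encode the activators through which ethylene and jasmonate jointly induce the defensin gene *PDF1.2*. *ERF1* had log2 signals of 6.34, 8.26 and 7.72 in Col-0 and of 5.45, 6.21 and 6.59 in OsbHLH068OE. Its groups overlapped, since the Col-0 array of slide 1 was below the highest OsbHLH068OE array. Within each slide, every OsbHLH068OE array was below every Col-0 array, with a difference of −0.89 on slide 1 and −1.59 on slide 2. The log2-fold change was −1.36 (SE 0.542, 95% interval −2.68 to −0.03), with an unadjusted P of 0.046 and an adjusted P of 0.245 by limma. The *ERF1* call was lost in 7 of the 18 other settings, among them leaving out Col-0 replicate 2 (−0.95), Col-0 replicate 3 (−1.22), OsbHLH068OE replicate 1 (−1.04) or OsbHLH068OE replicate 2 (−1.42).

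*ORA59* differed little between the genotypes, at 6.42, 8.73 and 8.13 in Col-0 and 6.92, 8.02 and 8.08 in OsbHLH068OE. The log2-fold change was −0.09 (SE 0.646), and its 95% interval of −1.67 to 1.49 held changes as large as that of *ERF1*. The slide 1 array was the lowest of its group in both genotypes. The mean of the slide 2 arrays exceeded the slide 1 array by 2.01 in Col-0 and by 1.13 in OsbHLH068OE.

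*ERF1A* and *ERF2* encode GCC-box activators of jasmonate- and ethylene-responsive defense genes, and both repeated this shape. For *ERF1A*, probe 1 (A_84_P20535) read 11.54, 13.01 and 12.71 in Col-0 and 11.57, 12.45 and 12.24 in OsbHLH068OE. Probe 2 (A_84_P869292) read 9.45, 10.88 and 10.64 in Col-0 and 9.47, 10.42 and 10.21 in OsbHLH068OE. Slide 1 gave the lowest array of each group with both probes, and the groups overlapped. The log2-fold changes were −0.34 (95% interval −1.39 to 0.72) and −0.28 (95% interval −1.35 to 0.78), with adjusted P values of 0.695 and 0.746 by limma.

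For *ERF2* the log2 signals were 7.45, 9.43 and 9.08 in Col-0 and 7.99, 9.27 and 9.24 in OsbHLH068OE. Again the slide 1 array was the lowest of its group in both genotypes. OsbHLH068OE minus Col-0 was 0.18 (SE 0.607, 95% interval −1.30 to 1.66, adjusted P 0.892 by limma), with a difference of 0.54 on slide 1 and 0.00 on slide 2. The slide 1 array was the lowest in both groups for 8 of the 13 probes, against 18.9% of all probes. What set slide 1 apart for these genes was not tested.

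*ERF13*, whose transcript is known to respond rapidly to wounding and insect feeding, moved opposite to *ERF15*. Its log2 signals were 8.52, 8.0 and 8.84 in Col-0 and 6.26, 7.08 and 7.16 in OsbHLH068OE. All OsbHLH068OE arrays were below all Col-0 arrays, with means of 6.83 ± 0.495 and 8.45 ± 0.426 (SD, n = 3). This was a log2-fold change of −1.62 (SE 0.315, 95% interval −2.39 to −0.85), a 3.07-fold lower signal, with an adjusted P of 0.0934 by limma, or 0.0632 with slide as a block. It was −2.26 on slide 1 and −1.30 on slide 2. The probe was a DEP in all 18 other settings, with log2-fold changes from −1.85 to −1.28.

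*ERF5* and *ERF6* are close relatives that act together in restraining leaf growth under osmotic stress, and the ERF6 protein is a substrate of the mitogen-activated protein kinases MPK3 and MPK6. *ERF6* fell and *ERF5* did not pass. Probe 2 of *ERF6* (A_84_P820417) read 10.60, 10.74 and 11.19 in Col-0 and 8.55, 9.35 and 9.79 in OsbHLH068OE. The groups were separate, and the log2-fold change was −1.62 (SE 0.337, 95% interval −2.44 to −0.79), a 3.07-fold lower signal with an adjusted P of 0.103 by limma. This probe was a DEP in all 18 other settings, and with slide as a block its adjusted P was 0.0482.

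Probe 1 of *ERF6* (A_84_P290684) read 5.86, 6.43 and 6.56 in Col-0 and 5.24, 5.52 and 5.68 in OsbHLH068OE. The direction was the same and the groups did not overlap, but the difference of −0.80 (SE 0.215) was under the fold threshold. Its unadjusted P was 0.00965 and its adjusted P 0.144 by limma, or 0.0437 with slide as a block. The pair of probes therefore gave the same direction and different sizes for the same gene, 1.74-fold and 3.07-fold lower.

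*ERF5* had log2 signals of 9.16, 8.80 and 10.51 in Col-0 and of 9.19, 9.66 and 10.01 in OsbHLH068OE. The Col-0 arrays spanned the OsbHLH068OE arrays, and replicate 3 was the highest in both groups. The log2-fold change was 0.13 (SE 0.472, 95% interval −1.03 to 1.28, adjusted P 0.903 by limma). Whether *ERF5* and *ERF6* differed from each other in their response was not tested.

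*ERF104* and *ERF105* encode a further pair of close relatives. The ERF104 protein is a substrate of MPK6 released upon perception of bacterial flagellin, and *ERF105* acts in freezing tolerance. *ERF105* probe 1 (A_84_P296724) read 11.30, 10.56 and 11.94 in Col-0 and 9.36, 9.94 and 10.21 in OsbHLH068OE, and probe 2 (A_84_P785348) read 9.10, 8.35 and 9.73 in Col-0 and 7.41, 7.85 and 8.22 in OsbHLH068OE. With both probes the lowest Col-0 array, replicate 2, remained above the highest OsbHLH068OE array. The log2-fold changes were −1.43 (SE 0.389, adjusted P 0.147 by limma) and −1.23 (SE 0.381, adjusted P 0.175). Probe 2 lost its call when Col-0 replicate 1 (−1.21), Col-0 replicate 3 (−0.90) or OsbHLH068OE replicate 1 (−1.03) was left out, whereas probe 1 remained a DEP whichever array was left out. Within slide 2 neither probe was a DEP (−1.18 with an unadjusted P of 0.0859 for probe 1, −1.01 with 0.126 for probe 2, by limma), and by the methods' t-test probe 2 was not, with an unadjusted P of 0.0553.

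*ERF104* read 11.14, 10.19 and 11.86 in Col-0 and 9.33, 9.83 and 10.59 in OsbHLH068OE. Col-0 replicate 2 was again the lowest of its group and lay below the highest OsbHLH068OE array. The log2-fold change was −1.14 (SE 0.500, 95% interval −2.37 to 0.08), with an unadjusted P of 0.0623 by limma, so that *ERF104* was not a DEP. It became a DEP without Col-0 replicate 2 (−1.58) or without OsbHLH068OE replicate 3 (−1.48), while the difference shrank to −0.74 without Col-0 replicate 3 and to −0.85 without OsbHLH068OE replicate 1. The difference was −1.81 on slide 1 and −0.81 on slide 2.

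**Figure D2:**
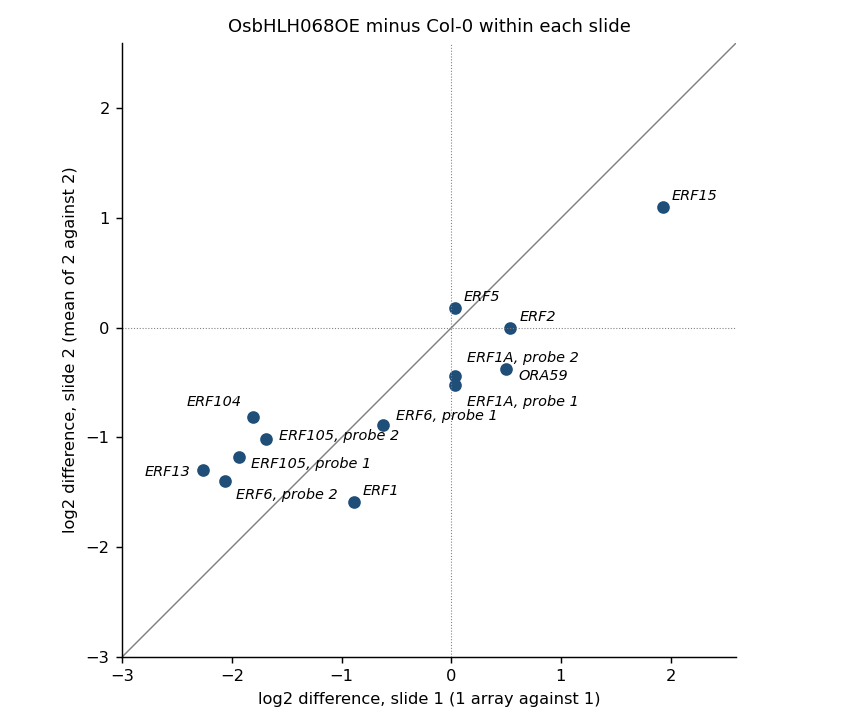
OsbHLH068OE minus Col-0 on the log2 scale for each of the 13 probes, on slide 1 (x axis, 1 array of each genotype) and on slide 2 (y axis, mean of 2 arrays of each), with a diagonal for equal values. *ERF15* is positive on both slides (1.93 and 1.1), and *ERF1*, *ERF13*, *ERF6*, *ERF104* and *ERF105* are negative on both.

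The opposite movement was also expressed within each array, as the log2 signal of *ERF15* minus that of each other probe, which removes any shift that an array applies to both. The level of this value has no meaning across probes. Its change between genotypes equals the log2-fold change of *ERF15* minus that of the other probe, so it is no separate evidence. Against *ERF13* it was −0.66, 0.84 and −0.02 in Col-0 and 3.53, 2.98 and 2.63 in OsbHLH068OE, a change of 2.99. Against *ERF6* probe 2 it was −2.75, −1.91 and −2.37 in Col-0 and 1.24, 0.70 and 0.00 in OsbHLH068OE, also a change of 2.99. All OsbHLH068OE arrays were above all Col-0 arrays in both cases.

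The change was 2.73 against *ERF1*, 2.80 and 2.61 against the *ERF105* probes, 2.52 against *ERF104* and 2.18 against *ERF6* probe 1. Against the genes with small differences it was 1.71 and 1.66 (*ERF1A*), 1.46 (*ORA59*), 1.25 (*ERF5*) and 1.19 (*ERF2*). The groups were separate for 11 of the 12 probes, the exception being that of *ERF5*. Each of the 11 had a two-sided exact permutation P of 0.1, the smallest that 3 arrays against 3 can give, and the *ERF5* probe had an exact P of 0.2. These 12 values share the *ERF15* signal and are not independent of each other. The *ERF15* groups were separate on their own, so a difference from a probe that changed little can separate through *ERF15* alone. For a probe whose own groups were separate in the lower direction, the separation and its exact P were fixed in advance. The count of separate groups is therefore no added support for opposite movement, and its share over all probes was not computed.

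The arrays also held 7 other genes of group IX, read by 8 probes, of which 4 probes were well above background on all arrays and 3 on none. Among them, 2 probes were DEPs (1.17% of all probes) and both were higher (0.378% of all probes). *ERF107*, also called *DEWAX*, a repressor of cuticular wax synthesis, read 13.63, 13.23 and 13.64 in Col-0 and 14.87, 14.69 and 14.39 in OsbHLH068OE. The groups were separate, and the log2-fold change was 1.15 (SE 0.171, 95% interval 0.73 to 1.57, adjusted P 0.0602 by limma). *ERF107* and *ERF104* are direct neighbors on chromosome 5, with 0 protein-coding genes between them, and their differences of 1.15 and −1.14 had opposite signs.

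*ERF106*, the close relative of *ERF107*, was higher with both of its probes. Its first probe (A_84_P12054) read 12.60, 12.20 and 12.47 in Col-0 and 13.41, 13.41 and 13.28 in OsbHLH068OE, with a log2-fold change of 0.94 (SE 0.123) and an adjusted P of 0.0488 by limma. Its second probe (A_84_P821249) was a DEP, at 1.11 (SE 0.179, adjusted P 0.0708 by limma), but not without Col-0 replicate 2 (0.96). *ERF15* was thus accompanied by *ERF106* and *ERF107* among the 17 genes of the group in having a DEP in the higher direction. *ERF098* gave 0.01 (SE 0.278), and the remaining genes were dim. *ERF6* and *ERF1A* are likewise direct neighbors, on chromosome 4, with log2-fold changes of −1.62 for *ERF6* probe 2 and of −0.34 and −0.28 for *ERF1A*.

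**Figure D3:**
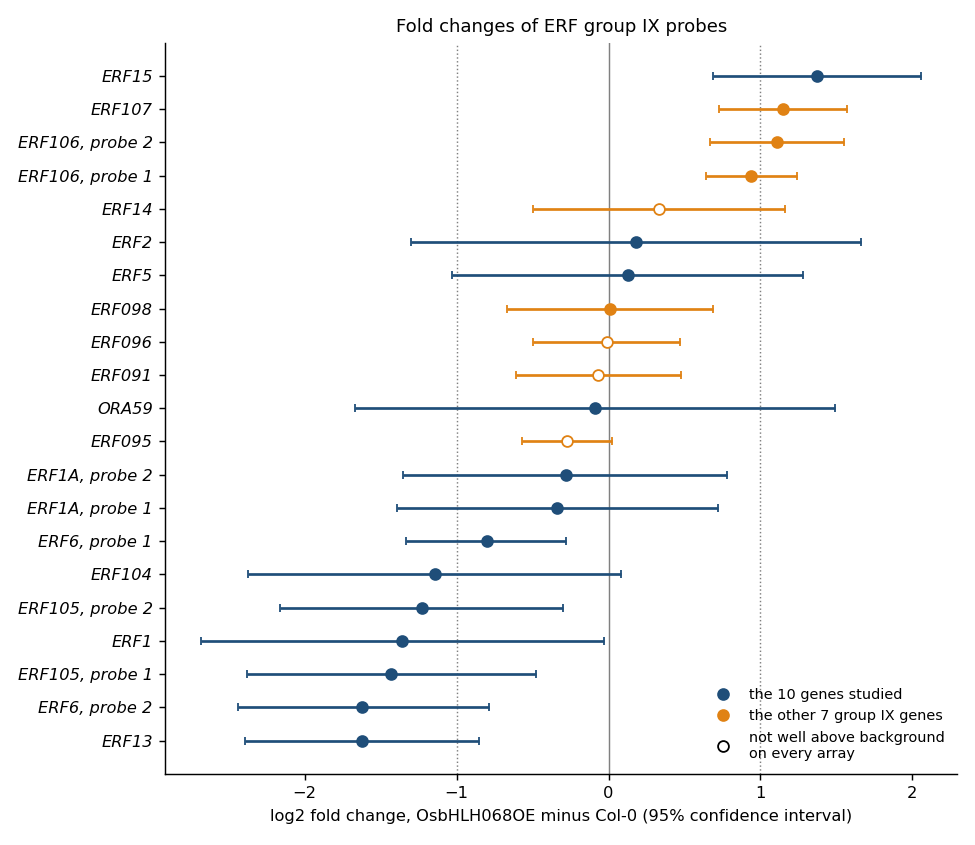
Log2-fold change (OsbHLH068OE minus Col-0) of each group IX probe with its 95% confidence interval from limma; blue marks the 10 genes studied, orange the other 7, open circles probes not well above background on every array, and dotted lines the fold threshold. *ERF15* at 1.37 and *ERF107* at 1.15 are at the top, and *ERF13* and *ERF6* probe 2 at −1.62 are at the bottom.

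Genes on which group IX proteins are known to act were read next, from lists described by their counts and medians, with values for some of their genes and no test of a list. The first list held 9 defense genes taken as GCC-box targets (defensins, chitinase and related proteins), whose promoters were not examined here. Of their 12 probes, 8 were well above background on all arrays. By limma and by the methods' t-test, 0 of the 12 were DEPs and 0 had an unadjusted P under 0.05. The median log2-fold change was −0.29. The defensin gene *PDF1.2A* had a wide spread, at 12.19, 14.69 and 13.19 in Col-0 and 8.24, 10.85 and 12.89 in OsbHLH068OE. OsbHLH068OE replicate 3 lay within the Col-0 arrays and the other 2 below them. The log2-fold change was −2.70 (SE 1.25, 95% interval −5.75 to 0.35, adjusted P 0.296 by limma), and *PDF1.2B*, *PDF1.2C* and *PDF1.3* gave −2.61, −2.70 and −2.42. Without OsbHLH068OE replicate 1 the log2-fold changes of *PDF1.2A*, *PDF1.2B*, *PDF1.2C* and *PDF1.3* were −1.49, −1.47, −1.56 and −1.40, and without OsbHLH068OE replicate 3 they were −3.81, −3.70, −3.73 and −3.40, each then a DEP. These 4 genes are close copies whose probes may read each other's transcripts. With slide as a block, 4 of the 12 probes were DEPs (1.35% of all probes in that fit), with unadjusted P values of 0.0116 to 0.0181 for these copies and 0 adjusted P values under 0.05. *PR4*, which encodes a chitin-binding protein, had a log2-fold change of −0.87 (SE 0.51), and the thionin gene *THI2.1* had 0.91 and 0.81 with its probes. The *THI2.1* differences had opposite signs on the slides, at −0.64 and −0.51 on slide 1 and 1.69 and 1.47 on slide 2, and without OsbHLH068OE replicate 2 they were 0.37 and 0.28. Neither gene passed by limma over the 6 arrays.

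The genes reported to be under the control of ERF5 and ERF6 included the lone adjusted P under 0.05 among these lists of targets and upstream genes. *ERF11*, which encodes a repressor with an EAR motif, read 9.77, 10.12 and 9.72 in Col-0 and 7.26, 7.75 and 7.99 in OsbHLH068OE. The groups were far apart relative to their spread, with a log2-fold change of −2.20 (SE 0.213, 95% interval −2.72 to −1.68) and an adjusted P of 0.0324 by limma. The probe was a DEP in all 18 other settings, but its adjusted P there was between 0.00572 and 0.19. It was 0.0962 by the methods' t-test and 0.0925 by limma within slide 2. *WRKY33*, a regulator of camalexin synthesis, was also a lower DEP (11.21, 11.61 and 11.88 against 9.85, 10.52 and 11.10), at −1.08 (SE 0.341, adjusted P 0.181 by limma). The *WRKY33* call was lost by the methods' t-test (unadjusted P 0.0585), within slide 2 (−0.93) and on leaving out OsbHLH068OE replicate 1 (−0.76), replicate 2 of Col-0 (−1.06) or replicate 3 of Col-0 (−0.92). *MYB51* (−0.68), *STZ* (−0.86) and the gibberellin-inactivating oxidase gene *GA2OX6* (0.22) were not DEPs. Over this list 2 of 5 probes were DEPs by limma (1.17% of all probes) and 1 of 5 by the methods' t-test (0.908%), and the median log2-fold change was −0.86.

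Of the 13 upstream genes of ethylene and jasmonate signaling and of the kinase cascade, read by 16 probes, 0 probes were DEPs and 0 had an adjusted P under 0.05 by limma or the methods' t-test, while 7 had an unadjusted P under 0.05 by each. Over all probes, an unadjusted P under 0.05 was found for 19.8% by limma and for 18.5% by the methods' t-test. Of the 16, 10 had fully separate genotypes, each time lower in OsbHLH068OE, whereas 12.3% of all probes were both separate and lower. *MPK3*, which encodes a kinase of ERF6, read 11.77, 12.32 and 12.14 in Col-0 and 10.75, 11.32 and 11.42 in OsbHLH068OE, a difference of −0.91 (SE 0.226, adjusted P 0.128 by limma). *MKK4*, which encodes a kinase that activates MPK3, gave −0.70 (SE 0.11, adjusted P 0.0685). Both had an adjusted P under 0.05 with slide as a block, at 0.0408 and 0.0435. The other genes of the cascade differed less, with −0.18 for *MPK6*, −0.19 for *MKK5*, and 0.13 and 0.11 for the probes of *MKK9*. The ethylene-signaling genes *EIN3* (−0.25), *EIL1* (−0.28) and *EIN2* (−0.02) also showed smaller differences than *MPK3* and *MKK4*. So did *EBF1* (−0.36 and −0.30) and *EBF2* (−0.08 and −0.04).

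**Figure D4:**
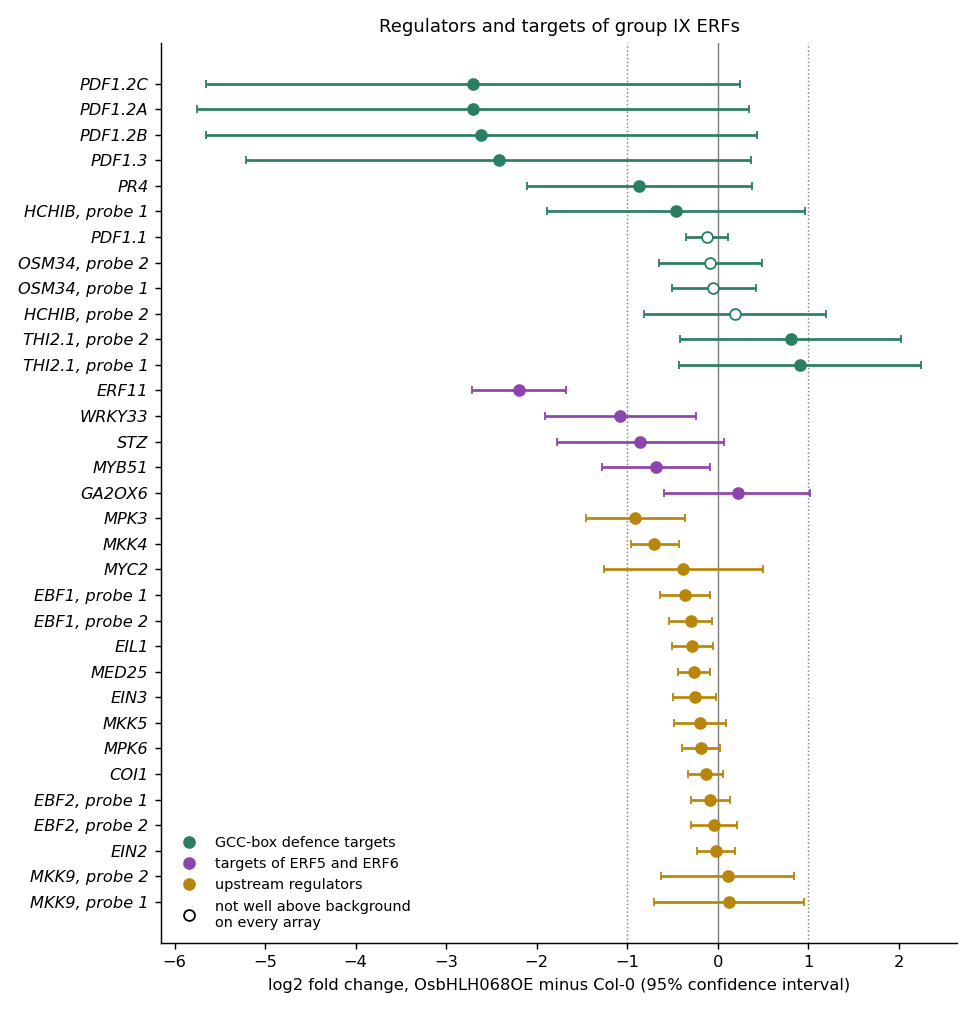
Log2-fold change (OsbHLH068OE minus Col-0) with its 95% confidence interval from limma for each probe of the GCC-box defense genes (green), the genes under ERF5 and ERF6 (purple) and the upstream genes (brown); open circles mark probes not well above background on every array. *ERF11* at −2.20 lies far from 0 with a short interval, whereas *PDF1.2A* at −2.70 has an interval from −5.75 to 0.35.

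To find transcripts that followed the same course over the 6 arrays, the *ERF15* probe and probe 2 of *ERF6* were each correlated with 26380 probes that were well above background on every array. The closest to *ERF15* were *PUP10*, a purine permease gene (Pearson's r = 0.996), *ETC1*, a gene of trichome and root hair patterning (r = 0.996), and *NUDT17*, a nudix hydrolase gene (r = 0.994). Their log2-fold changes were 0.43, 0.44 and 0.94, each smaller than that of *ERF15*, and none was a DEP. The closest to *ERF6* were AT3G23080, *RDUF2*, a RING domain gene, and *LCL1*, also named *RVE4* (r = 0.998, 0.997 and 0.997), with log2-fold changes of −0.30, −0.22 and −0.35. The 6 points share the 2 genotypes and the 2 slides, and the highest of 26380 values are high by selection, so these are descriptions of likeness only.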

How the data were processed

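Cy3-labeled RNA of 6 samples (3 per group) was read on 1-color Agilent arrays. The intensity values were deposited by the authors as median spot and local background signals from Agilent Feature Extraction 10.7.1.1. The main values were the log2 signals of the deposited series table, which the authors derived with limma by correcting the background (normexp) and quantile-normalizing every spot, control spots included. The same steps with an offset of 0, repeated here from the intensities, differed from the table by at most 5e-09, which settles its scale, centring and direction. The methods state that labeled cRNA was pooled, without naming what was combined.

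The 43603 probes were fitted with limma 3.58.1 (lmFit, eBayes, constant prior with 2.03 prior degrees of freedom) in R 4.3.3, with Benjamini-Hochberg adjustment over all probes and without a filter on dim probes. The fitting steps were run on simulated arrays with independent errors and no slide effect. That run cannot show how the P values behave where arrays of a slide differ together. Transcript accessions were matched to a RefSeq gene table of TAIR10.1, which named 34358 probes, used for names and gene order alone because the arrays were annotated on an older build. Probe sequences came from the probe table of the study's supplement. Promoter and protein sequences were not analysed here.

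The members and gene lists were chosen with earlier results of these data known. The genes named were all members, list genes that were DEPs or had an adjusted P under 0.05, neighbors of members in group IX, and the 3 probes most like *ERF15* and *ERF6*. *ERF098*, *PDF1.2A* and its copies, *PR4*, *THI2.1*, *MYB51*, *STZ*, *GA2OX6*, *MPK3*, *MKK4*, *EIN2*, *EIN3* and *EIL1* were named after their values were seen. So were *MPK6*, *MKK5*, *MKK9*, *EBF1*, *EBF2* and the single floral organ markers. Exact permutation tests were two-sided. The alternatives were other background corrections (normexp offset 50, none), scaling to the 75th percentile (processed signal, normexp), cyclic loess, control and outlier spots left out, dim probes left out, eBayes with trend and robust prior, the methods' t-test, slide or replicate number as a block, slide 2 alone, and each array left out in turn.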

Additional observations from a re-analysis of the deposited data

How the results depend on the processing

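Of the 13 probes, 6 were DEPs in the main comparison (1.17% of all probes) and 4 to 7 under the 18 alternatives (0.734% to 2.43%). *ERF15* was the only DEP in the higher direction, and *ERF13* and *ERF6* probe 2 were DEPs in the lower direction, under each of them. The count at an adjusted P under 0.05 was 0 in the main comparison, against 230 of all 43603 probes. It was 3 with a normexp offset of 50 (1564 of all probes) and 3 without background correction (1520). With dim probes left out it was 2 (1347 of 31272 probes), and with an intensity trend and robust prior 1 (1387 of all probes). With slide as a block it was 3 (1018 of all probes), and it was 0 to 2 when each array was left out. The 2 came without Col-0 replicate 1, where the count over all probes was 2684. With the replicate number as a block there were 7 DEPs (1.34% of all probes), adding *ERF104*. By limma, 0 of the 13 then had an adjusted P under 0.05, against 1 of all probes. The replicate numbers were not taken to pair the samples. Deviations from the group means correlated at 0.261 for the replicates 1, which also shared slide 1, at 0.097 for the replicates 2 and at 0.013 for the replicates 3, and not every array correlated best with its own number.

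Genes with small differences changed sign. When each array was left out, the log2-fold change ran from −0.76 to 0.40 for *ORA59*, −0.42 to 0.60 for *ERF2*, −0.22 to 0.64 for *ERF5*, −0.18 to 0.28 for *ERF098* and −0.13 to 0.49 for *GA2OX6*. Within slide 2 it was 0.00 for *ERF2* and −0.27 for *GA2OX6*, with cyclic loess −0.03 for *ERF098*, and with the processed signal 0.00 for *ERF095*, which the dim filter left out. Over all probes, the DEPs numbered 509 (344 lower), 322 with offset 50, 320 without background correction, 927 (496 lower) with the processed signal, 926 within slide 2 and 1060 without Col-0 replicate 1. The adjusted P count was 230, and ran from 0 by the methods' t-test to 2684 without Col-0 replicate 1. The cause was not tested. The number of arrays limits the precision.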
